A study of Mus musculus with 6 samples.

Results

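Primary granule genes and C/EBP transcription factor genes form a set of 9 genes, out of 22180 measured as single genes, described here in sorted LT-HSC (long-term haematopoietic stem cells) of mice that express a mutant nucleophosmin. The 5 granule genes are Mpo, Elane, Prtn3, Ctsg and Ms4a3, and the 4 factor genes are Cebpa, Cebpb, Cebpd and Cebpe. Members were chosen by name and not by a cut on their values, though earlier results of these data were known. Each has exactly 1 probe set annotated with that symbol alone, so the choice between probe sets did not arise. The groups were 3 arrays of NPMc+ cells, from pools of animals expressing the NPMc+ mutant protein (nucleophosmin displaced to the cytoplasm, as in acute myeloid leukaemia), and 3 arrays of control cells, from pools of control animals. All pools came from bone marrow of the strain given as C57/BL6, and the LT-HSC were sorted 4 months after a bone marrow transplantation. About 5 ng of total RNA was amplified for each array. What drives the mutant, how many animals made a pool and which markers were used to sort are not stated in the labels.

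Primary, or azurophil, granules are the first granules a neutrophil precursor makes, at the promyelocyte stage, and their genes are switched on in granulocyte-monocyte progenitors, ahead of the genes of the later, specific and gelatinase granules. C/EBP factors are leucine zipper proteins that bind DNA as dimers: C/EBP alpha is needed for the step into granulocyte-monocyte progenitors, and C/EBP epsilon for the later granules. In bulk RNA, fewer cells of a type and less RNA per cell cannot be told apart.

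Values are the deposited log2 signals, given as made with RMA, a method that corrects background, scales arrays to each other and summarises probes. They also carry an adjustment by replicate number, which RMA does not make and the labels do not describe. The mean of the same-numbered NPMc+ and control arrays was equal in all 3 pairs, within 0.001 log2 units, for 100% of 41345 probe sets. Arrays of 1 number therefore mirror each other around that mean, the SDs of both groups are the same by construction, and the groups of a gene do not overlap exactly when its 3 pair differences (NPMc+ minus control of the same replicate number) have 1 sign. Signals of different probe sets are not compared as amounts of RNA. Sex-linked RNA was uneven between the pools: Xist differed between NPMc+ and control by -5.44, -5.39 and 0.48 log2 units in pairs 1, 2 and 3. Of the Y-linked genes, Eif2s3y differed by 5.49, 0.36 and -0.79, Uty by 4.68, 0.93 and 0.35, and Kdm5d by 3.48, 1.29 and -0.67, so that both kinds of gene differed by over 3 in pair 1 and Xist alone in pair 2. Of 16 LT-HSC markers 14 were measured, and their mean log2 signal was 6.25, 6.34 and 6.39 in NPMc+ and 5.90, 5.81 and 5.76 in control. Markers that a stem cell sort should exclude were also measured. The mean of the 14 neutrophil markers was 8.53, 8.61 and 9.41 in NPMc+ and 10.33, 10.26 and 9.46 in control, and that of the 11 B cell markers measured, of 12 listed, was 4.54, 4.58 and 4.53 in NPMc+ and 5.72, 5.68 and 5.73 in control. Monocyte markers, of the same branch as the granule genes, averaged 6.97, 6.78 and 6.95 in NPMc+ and 7.46, 7.65 and 7.49 in control; 4 of 11 were nominally lower (limma's p before adjustment under 0.05) and all 11 had a negative mean difference. Of the 7 erythroid markers measured, of 10 listed, 6 were nominally lower. Their means were 5.30, 5.68 and 5.43 in NPMc+ and 6.52, 6.14 and 6.39 in control. Of 10 T and NK cell markers 3 were nominally lower and 1 nominally higher. Means of these were 4.62, 4.61 and 4.37 in NPMc+ and 4.93, 4.93 and 5.17 in control. Likewise, 6 of 14 LT-HSC markers were nominally higher and 0 lower, and 7 of 10 B cell markers tested were nominally lower and 0 higher. Over all genes tested, 5.95% were nominally higher and 3.02% nominally lower.

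The promoters of 4 of the 5 granule genes share a short ETS-type word, the kind read by the myeloid factor PU.1, and are shown for that reason. RefSeq promoter windows of the GRCm38.p6 build were found for 7 of the 9 members; the 250 bases before the transcription start are given 5′ to 3′ on the gene's strand. Capitals mark 3 words searched on both strands, which do not overlap in these windows: AGGAAGT (ETS-type), AACGG (MYB-type) and GCAAT (the core of a C/EBP site). PU.1, MYB and C/EBP factors are known activators of the Elane promoter. The windows are chr11:87793534-87793783 (plus strand) for Mpo, chr10:79886062-79886311 (plus) for Elane, chr10:79879417-79879666 (plus) for Prtn3 and chr14:56102575-56102824 (minus) for Ctsg.
Mpo: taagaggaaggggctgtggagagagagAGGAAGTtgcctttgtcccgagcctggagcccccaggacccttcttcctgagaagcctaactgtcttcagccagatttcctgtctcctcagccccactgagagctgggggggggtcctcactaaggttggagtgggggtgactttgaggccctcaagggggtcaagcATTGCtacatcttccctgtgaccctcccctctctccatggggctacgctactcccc
Elane: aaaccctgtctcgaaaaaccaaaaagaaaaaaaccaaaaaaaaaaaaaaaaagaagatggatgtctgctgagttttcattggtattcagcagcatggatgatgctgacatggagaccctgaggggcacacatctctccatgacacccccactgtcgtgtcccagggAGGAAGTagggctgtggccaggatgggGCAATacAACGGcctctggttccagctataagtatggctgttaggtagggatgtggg
Prtn3: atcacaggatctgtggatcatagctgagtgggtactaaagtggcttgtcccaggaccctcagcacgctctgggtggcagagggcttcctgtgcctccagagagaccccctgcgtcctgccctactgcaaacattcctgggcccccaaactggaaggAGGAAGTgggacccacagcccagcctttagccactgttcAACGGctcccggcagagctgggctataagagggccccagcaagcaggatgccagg
Ctsg: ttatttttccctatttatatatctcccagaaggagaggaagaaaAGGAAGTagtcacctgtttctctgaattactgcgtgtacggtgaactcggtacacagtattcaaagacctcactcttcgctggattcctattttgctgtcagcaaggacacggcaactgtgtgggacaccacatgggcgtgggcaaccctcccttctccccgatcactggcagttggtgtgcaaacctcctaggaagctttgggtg
AGGAAGT began 223 bases before the start in Mpo, 84 in Elane, 94 in Prtn3 and 206 in Ctsg. Of all 32851 windows of this length, 7.69% held it. Among the granule genes AACGG lay 50 bases before the start in Elane and 55 in Prtn3, against 14.5% of all windows with that word. GCAAT was found in Elane (57 bases before the start) and, on the opposite strand, in Mpo (56 bases), and in 23.1% of all windows. Of the factor genes, Cebpb held GCAAT and Cebpa held AACGG on the opposite strand. Elane alone among the 7 members held all 3 words, as did 0.253% of all windows. In the Ms4a3 window none of these letters was found. The words were chosen with the sequences in view, and a match is a description of letters, since no binding was measured.

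None of the 9 members passed the test between NPMc+ and control. The granule genes and Cebpa lay above control in pair 1 and, apart from Ms4a3, in pair 2, and level with or below control in pair 3. Cebpe was higher in NPMc+ in 3 of 3 pairs, and Cebpb and Cebpd had their lowest difference in pair 2. In limma with the replicate number as a block, 0 of 9 had an adjusted p under 0.05, as did 0 of all 16635 genes tested (0%). Genes are called nominally higher or lower here when limma's p before adjustment was under 0.05. By that rule 0 of the 9 were nominally higher, as were 5.95% of all genes, and 0 nominally lower, as were 3.02%. The groups did not overlap for 1 of 9 in the higher direction, Cebpe, against 17.4% of all genes, and for 0 of 9 in the lower direction, against 12.8%. Of the 9 members 7 had a positive mean difference, with a median of 0.17 log2 units, against 9131 of the 16635 genes tested and a median of 0.03 over all of them.

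Mpo encodes myeloperoxidase, the enzyme that makes hypochlorous acid in the granule. It had 12.10, 12.09 and 11.96 log2 units in NPMc+ replicates 1, 2 and 3, against 11.83, 11.84 and 11.97 in control. NPMc+ was the higher array in pairs 1 and 2, and the arrays of pair 3 were level, so the groups overlapped. The difference was 0.17 ± 0.18 log2 units (SE, n = 3 pairs, 95% interval -0.26 to 0.60, limma adjusted p = 0.841). Here and below, SE is limma's moderated standard error, which draws on the spread of all genes tested. This SE and the interval built on it therefore do not show only the scatter of a gene's own 3 pairs. The Mpo signal was above that of 99.8% of the 22180 genes, on arrays labelled as stem cells in both groups. That is a rank of probe set signals, not of amounts of RNA.

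Elane, which encodes neutrophil elastase, and Prtn3, which encodes proteinase 3, are neighbours on chromosome 10 and are serine proteases with a similar fold. Elane had 11.35, 11.28 and 11.06 log2 units in NPMc+, against 10.78, 10.86 and 11.07 in control. As for Mpo, NPMc+ was higher in pairs 1 and 2 and level in pair 3. The difference was 0.32 ± 0.20 (SE; 95% interval -0.15 to 0.80; limma adjusted p = 0.695), or 1.25-fold. Prtn3 had 9.39, 9.59 and 8.89 log2 units in NPMc+, against 8.83, 8.63 and 9.33 in control. It spread most among the granule genes: its pair differences were 0.57, 0.97 and -0.44, and pair 3 held both the lowest NPMc+ array and the highest control array. The mean difference of Prtn3 was 0.36 ± 0.29 (SE; 95% interval -0.33 to 1.06; limma adjusted p = 0.778). Prtn3 differed by 0.26 without pair 1, 0.064 without pair 2 and 0.77 without pair 3; the unadjusted p was 0.522, 0.838 and 0.0194, and the limma adjusted p 0.909, 0.983 and 0.538.

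Ctsg encodes cathepsin G, a granule protease of the same superfamily, whose gene lies between the mast cell protease gene Mcpt8 and the granzyme gene Gzme in RefSeq's order of protein-coding genes. Its signals were 11.62, 11.44 and 11.11 log2 units in NPMc+, against 11.14, 11.32 and 11.65 in control. The pair differences of Ctsg crossed 0, at 0.47, 0.13 and -0.55, and left a mean of 0.02 ± 0.24 (SE; 95% interval -0.56 to 0.59; limma adjusted p = 0.990). Its neighbour Mcpt8, a basophil protease gene, ran in the same order, at 0.65, -0.35 and -1.55. Ms4a3, a membrane protein gene of granulocyte-monocyte progenitors, had 10.37, 10.06 and 10.00 log2 units in NPMc+, against 9.82, 10.12 and 10.18 in control. NPMc+ was higher in pair 1, and below control in the other two. Its difference was 0.10 ± 0.21 (SE; 95% interval -0.41 to 0.61; limma adjusted p = 0.928).

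**Figure D1:**
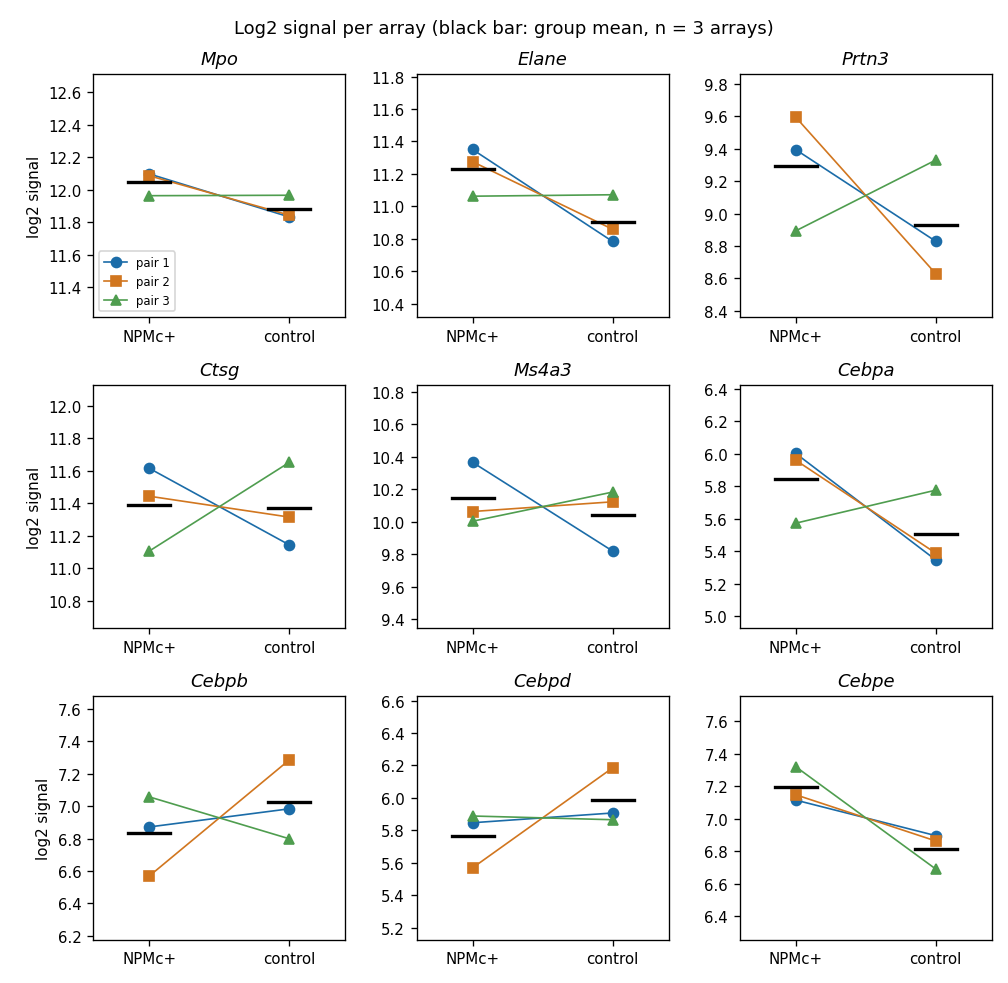
Log2 signal of each member on each array, NPMc+ at the left and control at the right, with lines joining arrays of 1 replicate number and black bars for group means (n = 3 arrays). Each panel spans the same height, and lines of a panel cross at 1 level because the deposited values have equal pair means; the lines of Cebpe alone all run downward to control.

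Cebpa, the factor gene that acts first in this branch, had 6.002, 5.96 and 5.57 log2 units in NPMc+, against 5.35, 5.39 and 5.78 in control. Its pair differences of 0.66, 0.57 and -0.20 had the signs of Elane and Prtn3 in each pair. The mean was 0.34 ± 0.23 (SE; 95% interval -0.21 to 0.89; limma adjusted p = 0.729). It was 0.18 without pair 1, 0.23 without pair 2 and 0.61 without pair 3; the unadjusted p was 0.560, 0.451 and 0.0400, and the limma adjusted p 0.921, 0.913 and 0.625. Cebpe, whose product drives the later granule genes, had 7.11, 7.15 and 7.32 log2 units in NPMc+, against 6.90, 6.86 and 6.69 in control. Every NPMc+ array was above every control array, and the pair differences were 0.22, 0.28 and 0.63. The mean of 0.38 ± 0.19 log2 units (SE; 95% interval -0.07 to 0.83), or 1.30-fold, had an unadjusted p of 0.0859 and a limma adjusted p of 0.623.

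Cebpb and Cebpd are known for inflammatory and acute-phase responses, and C/EBP beta also for granulocyte output under infection. Cebpb had 6.87, 6.57 and 7.06 log2 units in NPMc+, against 6.98, 7.29 and 6.80 in control. Only pair 2 differed by more than 0.26, with NPMc+ 0.72 lower, and the groups overlapped. The mean was -0.19 ± 0.23 (SE; 95% interval -0.75 to 0.37; limma adjusted p = 0.864). Cebpd showed the same layout, with 5.85, 5.57 and 5.89 log2 units in NPMc+, against 5.91, 6.19 and 5.87 in control. Its pair 2 difference was -0.62, and those of the other pairs were -0.06 and 0.02. On average Cebpd differed by -0.22 ± 0.21 (SE; 95% interval -0.71 to 0.28; limma adjusted p = 0.823). The 4 factor genes thus had 2 positive and 2 negative means, and whether they differed from each other was not tested.

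**Figure D2:**
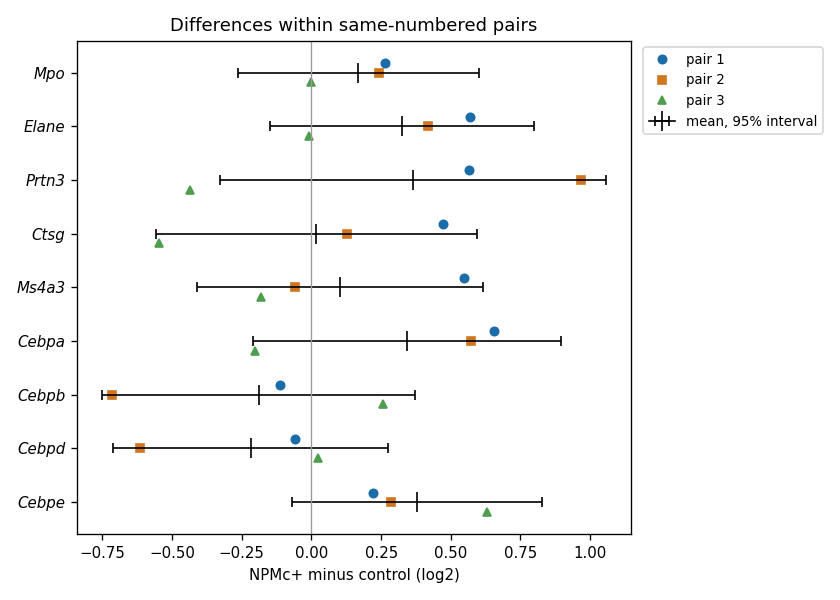
NPMc+ minus control in log2 units for each member, with a coloured mark for each of the 3 pairs and a black bar for the mean and its 95% interval from limma with the replicate block. Every interval spans 0; Cebpe has all 3 marks to the right of 0, and Cebpb and Cebpd have their pair 2 marks at -0.72 and -0.62.

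Other genes of the primary granule and of its assembly were listed beside the members. Of 14, Bpi lay below the filter on dim genes and 13 were tested: 1 was nominally higher, 1 nominally lower, 0 passed the adjusted threshold in limma, and the median was 0.18. The higher gene, Prss57, encodes the granule serine protease NSP4, with pair differences of 0.71, 0.76 and 0.28 and a mean of 0.58 ± 0.19 (SE; limma adjusted p = 0.471). Its level was 7.44 ± 0.13 log2 units in NPMc+ and 6.85 ± 0.13 in control (SD, n = 3 each). Both SDs are equal by construction and leave out any spread between replicate numbers. The lower gene, Lyz2, a lysozyme gene that monocytes and mature neutrophils express as well, differed by -1.02, -0.86 and 0.03 in the 3 pairs and by -0.61 ± 0.25 on average (SE; limma adjusted p = 0.551). All 16 genes of the later granules had a negative mean, with a median of -1.05. Of these, 13 were nominally lower and 0 passed the adjusted threshold in limma. Pair medians were -1.51, -1.44 and -0.09, against 0.55, 0.24 and -0.18 for the 5 granule members.

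The later granule genes of smallest p were Olfm4, Orm1, Mmp8 and Cybb. Mmp8, the neutrophil collagenase gene, had 8.54, 8.69 and 9.82 log2 units in NPMc+, against 11.30, 11.15 and 10.02 in control, so that it was lower in all pairs but by only 0.20 in pair 3 (-1.81 ± 0.48, SE; limma adjusted p = 0.410). Cybb, a subunit gene of the phagocyte oxidase, differed by -1.67, -1.92 and -0.10. In pair 3 Olfm4 still differed by -2.38 and Orm1 by -1.11. The count of nominally lower genes, 13, was 3 without pair 1, 3 without pair 2 and 14 without pair 3. The listed neutrophil markers, 7 of which are later granule genes as well, differed most in the same pairs: 10 of 14 were nominally lower and 0 nominally higher. At that p the markers numbered 2 without pair 1, 3 without pair 2 and 14 without pair 3. Their summed linear signal was 11165 to 16767 in NPMc+ and 16931 to 26867 in control. No defining marker among them was near the lower end of the scale, the dimmest, Ly6g, averaging 6.43 in NPMc+ and 8.56 in control. The part of mature neutrophils in the members' values was not tested. Xist, too, differed in pairs 1 and 2, the Y-linked genes mostly in pair 1, and the part of sex was not tested.

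**Figure D3:**
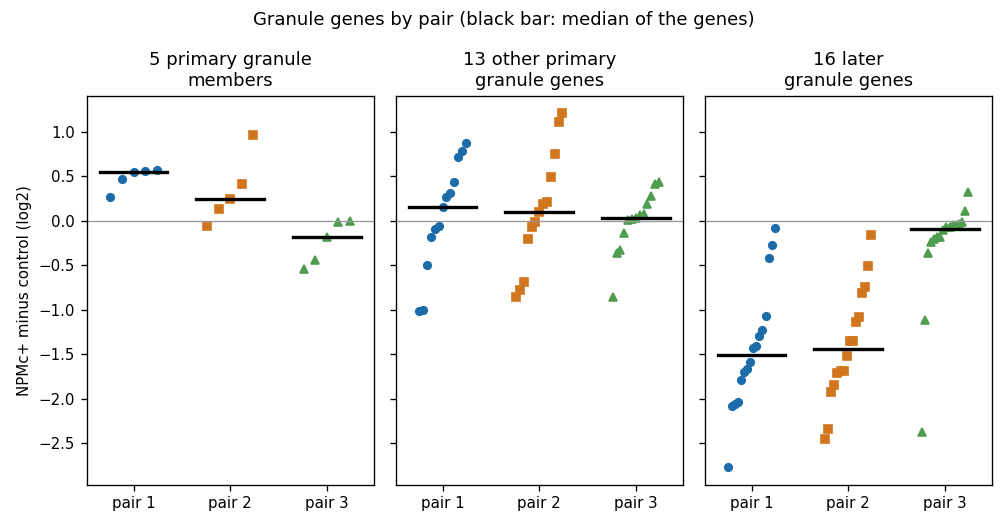
NPMc+ minus control in log2 units within each pair, for the 5 granule members, the 13 other primary granule genes tested and the 16 later granule genes; each mark is a gene and black bars are medians. The later granule genes lie mostly below -0.5 in pairs 1 and 2 and near 0 in pair 3, whereas the members lie above 0 in pair 1 and at or below 0 in pair 3.

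Markers of eosinophils, basophils and mast cells, which store related proteases, were set beside the granule members. The mean log2 signal of all 10 was 6.35, 6.23 and 5.79 in NPMc+ and 5.86, 5.98 and 6.43 in control. It was higher in NPMc+ in pairs 1 and 2 and lower in pair 3. The genes did not move together: in pair 2 they ran from -2.07 (Ccr3) to 3.11 (Epx). Median differences of the 9 tested were 0.65, 0.06 and -0.82 in pairs 1, 2 and 3. The summed linear signal of all 10 was 1753 to 3195 in NPMc+ and 1812 to 3168 in control. Of 9 tested, 2 were nominally lower and 0 nominally higher. The 2 were Ccr3, a chemokine receptor gene of eosinophils, at -1.14 ± 0.37 (SE), and Prss34, a basophil and mast cell protease gene, at -0.73 ± 0.24 (limma adjusted p = 0.471 for both). The tenth, Cma1, a mast cell chymase gene, lay below the filter on dim genes, with means of 2.53 in NPMc+ and 2.61 in control. The part of these cells in the members' pair differences was not tested.

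Among 7 listed partners and regulators of C/EBP proteins 6 were tested and 0 were nominally higher or lower in limma (0 adjusted), with a median of 0.03. The largest differences were those of Trib2, whose product drives C/EBP alpha to degradation, at -0.48 ± 0.31 (SE), and of Cebpg, a family member that dimerises with the others and lies close to Cebpa on chromosome 7, at -0.23 ± 0.23. Of 18 transcription factor genes tested for the granulocyte-monocyte choice, 3 were nominally higher and 2 nominally lower, with a median of 0.15 and 0 past the adjusted threshold in limma. Gata2, a factor of stem cells and of the mast cell and basophil lines, differed by 1.04 ± 0.27 (SE), Vdr, the vitamin D receptor gene, by 0.75 ± 0.20 and Etv6, an ETS-family repressor, by 0.72 ± 0.19. Lef1, a Wnt pathway factor also high in lymphocytes, differed by -0.91 ± 0.23. Irf8, which favours monocytes over granulocytes, differed by -0.80 ± 0.30, with -0.48, -1.65 and -0.25 in the pairs. These 5 genes had limma adjusted p-values of 0.397 to 0.514.

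Spi1, Myb and Gfi1 were singled out after their values were seen, as genes of known activators of the granule promoters and of a repressor needed for neutrophils. Spi1, which encodes PU.1, differed by 0.32, -0.11 and -0.21 in the pairs, averaging 8.30 in NPMc+ and 8.30 in control. Myb differed by 0.31, 0.19 and 0.38 (0.29 ± 0.18, SE; limma adjusted p = 0.692), and Gfi1 by 0.32, 0.24 and 0.66 (0.40 ± 0.19; limma adjusted p = 0.603). Of 10 receptor genes that feed signals to this branch, 2 were nominally higher and 0 nominally lower, with 0 past the adjusted threshold in limma. Both encode receptor kinases of early progenitors: Flt3 differed by 0.92 ± 0.24 (SE) and Kit by 0.43 ± 0.18, with limma adjusted p-values of 0.410 and 0.557.

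**Figure D4:**
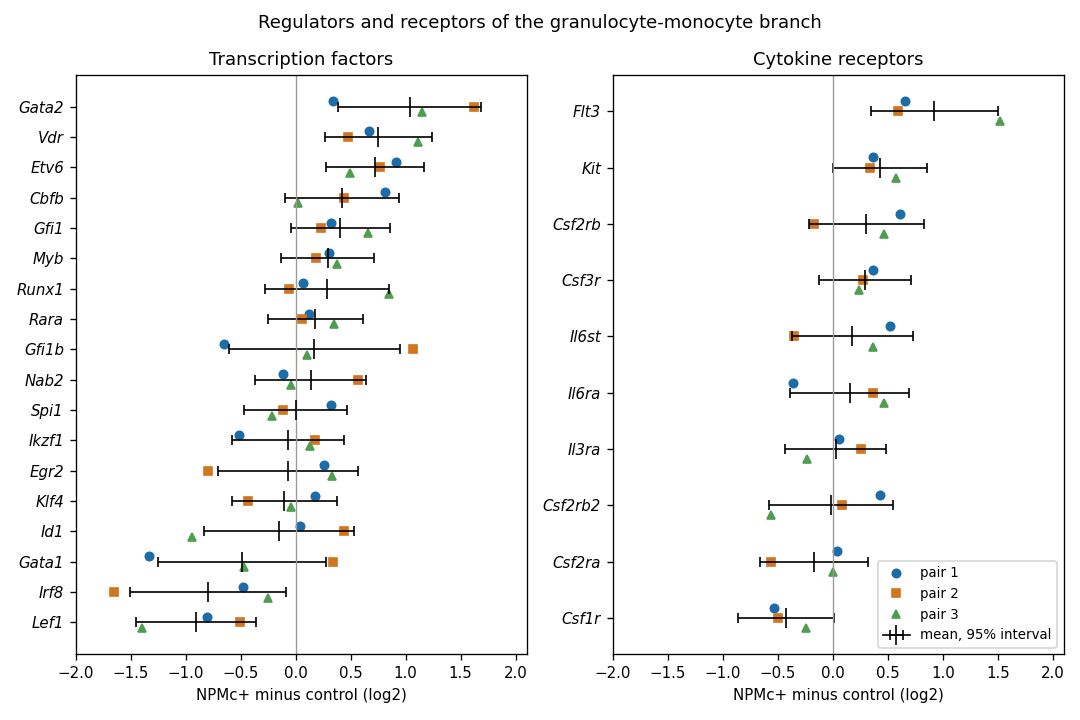
NPMc+ minus control in log2 units for the 18 transcription factor genes and 10 receptor genes tested, ordered by the mean, with a mark for each pair and a black bar for the mean and its 95% interval from limma. Of the genes nominally higher or lower, Gata2, Vdr, Etv6, Flt3 and Kit lie above 0 in all pairs, and Lef1 and Irf8 below 0. Counting every gene shown, 7 factor genes and 3 receptor genes lie above 0 in all pairs, against 17.4% of all genes tested. Below 0 in all pairs lie 2 factor genes and 1 receptor gene, against 12.8%.

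Relatives of the granule members by sequence were measured too. Of 13 Ms4a family genes tested, 3 were nominally lower and 0 nominally higher (0 adjusted in limma); in either direction 6 passed that p without pair 1, 4 without pair 2 and 1 without pair 3. The 3 were Ms4a1, the B cell gene of CD20, at -2.05 ± 0.18 (SE), Ms4a8a at -1.03 ± 0.31 and Ms4a4b, a T cell gene, at -0.85 ± 0.23. Among 17 granzyme and mast cell chymase genes, the relatives of Ctsg, 11 lay below the filter on dim genes and 5 were tested. Gzmb, a granzyme of cytotoxic cells, was higher in all pairs (0.84 ± 0.18, SE; limma adjusted p = 0.340), and Gzma was lower in all pairs (-0.78 ± 0.24; limma adjusted p = 0.458).

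The genes nearest in pattern were taken by root mean square distance over the 6 arrays after centring each gene, which in these values compares the 3 pair differences. Nearest to the mean of the 5 granule members were Ctsz, a lysosomal cathepsin gene, Kin and Mgat2, at distances of 0.011, 0.013 and 0.015 log2 units. Anxa6, Rsl24d1 and Gnai2 were nearest to Cebpa, at 0.012 to 0.020, and Elmo2, Rnf150 and Klhl5 to Cebpe, at 0.015 to 0.025. For Cebpb these were Arhgef37, Sash1 and Commd6, and for Cebpd Cyp4b1, Avpr2 and Tex48, all within 0.016. With 3 differences per gene and 16635 genes, near matches are many, so these names describe the arrays.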

How the data were processed

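The authors deposited log2 expression values of 41345 probe sets on 6 arrays, made with RMA per the submitters' processing notes. The labels state neither its version nor any later step, although the equal pair means show an adjustment by replicate number. Of the probe sets, 23521 had 1 gene symbol in the platform listing, for 22180 genes, each represented by its probe set with the highest mean. Genes below the 25th percentile of the mean were left out, and 16635 were tested, with a lowest mean of 3.01; all 9 members were among them. Differences (NPMc+ minus control) were tested with limma 3.58.1 (lmFit, eBayes, two-sided) in R 4.3.3, and adjusted by Benjamini-Hochberg over all genes tested. The replicate number was a block: same-numbered arrays, numbered in the sample titles, had equal means, and their deviations correlated at -1, so the values hold 2 residual degrees of freedom. The fit was tested on simulated data. Replicates are separate pools per the labels. The number of arrays limits precision. Members, gene lists and the design were chosen with earlier results of these data known. Besides members, the text names list genes at an unadjusted p under 0.05, at most 4 per direction, otherwise the list's largest differences; lists of cell type markers are mostly given as a whole. Alternatives were no replicate block, each pair left out, quantile or median scaling, other filters, an intensity trend, robust eBayes and averaged probe sets. Figures used matplotlib 3.10.9 in Python 3.11.15.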

Additional observations from a re-analysis of the deposited data

How the results depend on the processing

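No member passed the adjusted threshold under any of the 11 alternatives. Without the replicate block, limma takes 4 residual degrees of freedom although only 2 are free. That fit had 2 of 9 members at an unadjusted p under 0.05, Elane and Cebpe, against 0 with the block. Of all 16635 genes tested, 4138 passed that p without the block, against 1492 with it. At an adjusted p under 0.05 the fit without the block had 828 of all genes, against 0. The limma adjusted p without the block was 0.161 for Elane and 0.0792 for Cebpe. Leaving out 1 pair gave 0 to 2 members at an unadjusted p under 0.05. The 2 were Prtn3 and Cebpa, without pair 3, where 1257 of all 16635 genes tested passed that p. Over the 3 pairs left out in turn, 1155 to 1369 of all genes passed it. Across pairs left out, the differences of 3 members changed sign: Ctsg -0.21 to 0.30, Ms4a3 -0.12 to 0.24 and Cebpb -0.41 to 0.073. The other 6 kept their sign: Prtn3 0.064 to 0.77, Cebpa 0.18 to 0.61, Elane 0.20 to 0.49, Cebpe 0.25 to 0.46, Mpo 0.12 to 0.25 and Cebpd -0.34 to -0.02. List medians that changed sign with a pair left out were those of the other primary granule genes (-0.0061 to 0.15), the C/EBP partners (-0.046 to 0.059), the granzymes and chymases (-0.26 to 0.13) and the eosinophil, basophil and mast cell markers (-0.13 to 0.34; 0.056 with the filter at the 50th percentile). Leaving out a pair also moved all genes at an adjusted p under 0.05 to between 0 and 24, against 0. Genes at an unadjusted p under 0.05 numbered 8 without the block among the 18 transcription factors, against 5, 5 among the 13 other primary granule genes, against 2, 4 among the receptors, against 2, and 7 among the monocyte markers, against 4. With a pair left out these counts were 3 to 5, 0 to 2, 1 and 2 to 4. The causes of these shifts were not tested. Only 3 pair differences per gene limit what could be detected: the median SE over all genes was 0.20 log2 units.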
